A study of Mus musculus with 6 samples.

Results

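The transcripts described here are 10 mouse genes of cellular iron handling, chosen by symbol from the 55401 genes of the deposited table. They cover iron uptake (Tfrc, Slc11a2 and Slc11a1), storage (Fth1, Ftl1 and Ncoa4), export (Slc40a1), heme breakdown (Hmox1), siderophore binding (Lcn2) and iron sensing (Ireb2). RNA-seq libraries came from 3 NETs-treated samples and from 3 control samples labelled as normal. NETs are neutrophil extracellular traps, webs of chromatin and granule enzymes cast out by neutrophils. All 6 samples carry the wild-type genotype and the cell type label BMDM (bone marrow-derived macrophages), whereas their titles name BV2, a mouse microglial line. The labels state neither the dose of NETs, nor the duration of exposure, nor the age of any animals. They also do not say whether the samples of a group were separate cultures, so a p-value here reflects sample-to-sample spread that may be technical.

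Cells take up transferrin-bound iron through the transferrin receptor, store the surplus inside ferritin shells made of heavy and light chains, and release iron through ferroportin. Iron-regulatory proteins bind a hairpin called the iron-responsive element (IRE) when iron is scarce: they block translation when the hairpin lies ahead of the coding region and stabilise the transcript when it lies behind it. Macrophages recycle iron from heme and lower their iron export during inflammation, and the lipocalin encoded by Lcn2 withholds iron from bacteria by binding their siderophores.

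All 10 genes passed the filter on low counts, and their smallest count in any library was 956 reads. Transcripts of Lcn2, Fth1, Slc11a2 and Tfrc were higher in NETs-treated cells. Those of Slc40a1, Hmox1, Ftl1, Ncoa4 and Slc11a1 were lower, and Ireb2 was not called. Thus 4 genes rose and 5 fell (edgeR's quasi-likelihood test with an adjusted p, after Benjamini and Hochberg, below 0.05; n = 3 per group). Among all 15272 genes tested, 52.7% were called, 25.5% higher and 27.2% lower, so being called was common in these data. For 9 of the 10 genes the NETs-treated values lay wholly above or below the control values, as they did for 62.4% of all genes tested. Lcn2, Slc40a1 and Hmox1 changed at least 2-fold and were called, which held for 19.3% of genes tested. The median log2 fold change was -0.03 over the 10 genes and -0.02 over all genes tested.

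**Figure D1:**
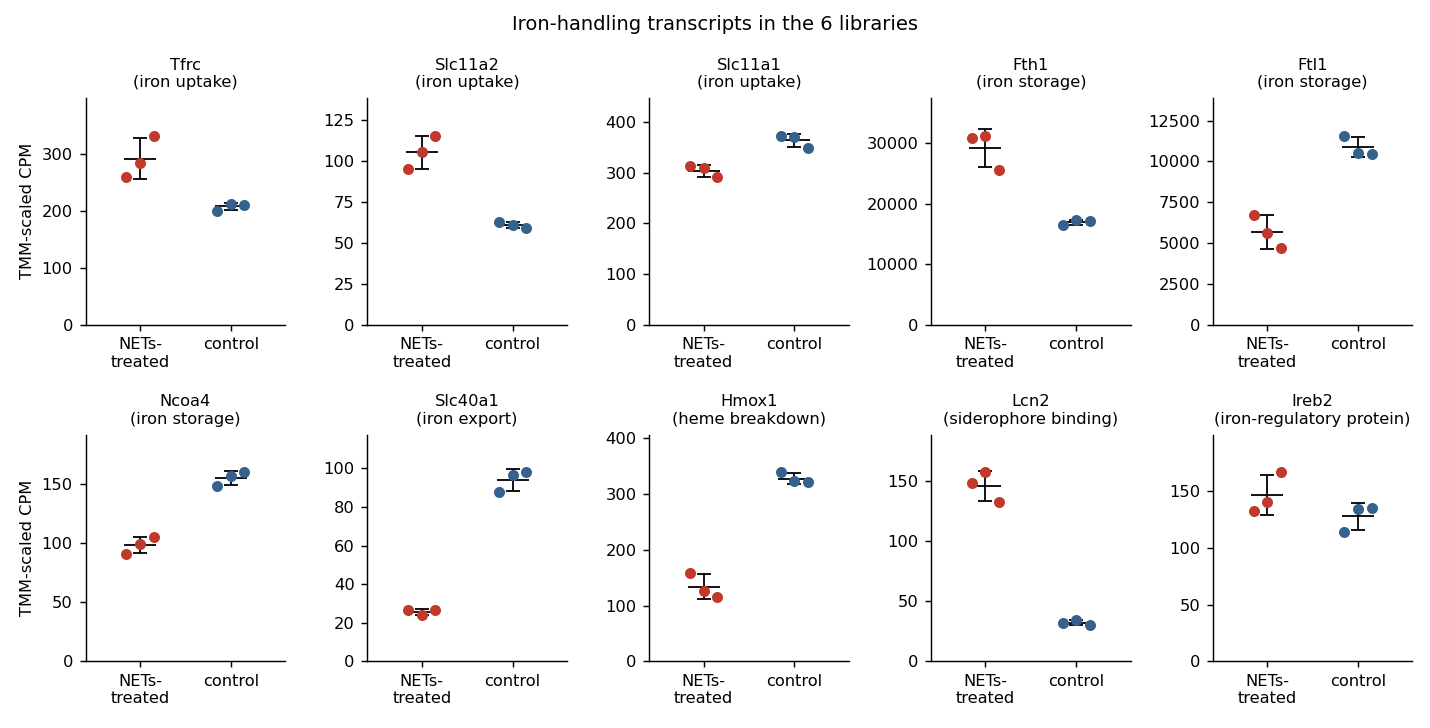
TMM-scaled CPM (counts scaled to a common depth, y axis, from 0) of each of the 10 genes in the 3 NETs-treated (red) and 3 control (blue) libraries, with bars for mean and SD. The groups are apart for every gene drawn except Ireb2, and Fth1 and Ftl1 stand far above the rest, at 4682 CPM or more.

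Total counts ran from 39994613 to 44274445 per library. Macrophage markers were all detected, with a summed level of 10595 to 10967 CPM in NETs-treated and 6127 to 6321 CPM in control libraries. Cd14, Lyz2 and Cd68 were the most abundant over both groups together. Only 2 of the 10 rose, Cd14 with 5439 CPM in NETs-treated and 691 CPM in control cells, and Lyz2 with 3523 and 2976 CPM. The other 8 fell, so the higher sum lay chiefly with Cd14. The part of these markers in the results below was not tested. Microglial markers summed to 288 to 315 CPM in NETs-treated and 723 to 749 CPM in control libraries, and Sall1 was at 0 throughout. Erythroid markers summed to at most 1.36 CPM in NETs-treated and 1.52 CPM in control libraries, and fibroblast and lymphocyte markers to less than that. All 10 iron genes had a larger coefficient of variation among NETs-treated than among control libraries, as did 69.1% of all genes tested. In bulk samples, fewer cells of a type and less RNA per cell cannot be told apart.

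The IRE hairpins are shown first because they divide the genes by the place of the hairpin. The choice of genes was not independent of this feature, since genes of iron handling include transcripts known for an IRE. A search of GENCODE M21 transcripts (GRCm38) looked for a C, any 5 bases, the loop CAGTGN and 5 bases that pair with the 5 before the loop. It found a match in the 5′ UTR of Fth1, Ftl1 and Slc40a1 and 4 matches in the 3′ UTR of Tfrc. The hairpin of Slc11a2, in the 3′ UTR of transcript Slc11a2-205, was found when 1 extra base or 1 unpaired position was allowed in the arms. The other 5 genes had no match in their UTRs under either rule. Each hairpin is given below as DNA of the transcript strand with 5 flanking bases on either side, and capitals mark the loop.
Fth1, chr19:9982733-9982759, plus strand, 5′ UTR: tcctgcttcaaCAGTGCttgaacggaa
Ftl1, chr7:45459780-45459806, minus strand, 5′ UTR: tcttgcttcaaCAGTGTttgaacggaa
Slc40a1, chr1:45925466-45925492, minus strand, 5′ UTR: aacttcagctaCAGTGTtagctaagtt
Tfrc, chr16:32631220-32631246, plus strand, 3′ UTR: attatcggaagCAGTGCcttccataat
Tfrc, chr16:32631599-32631625, plus strand, 3′ UTR: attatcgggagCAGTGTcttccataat
Tfrc, chr16:32631664-32631690, plus strand, 3′ UTR: tatatcggagaCAGTGAtctccatatg
Tfrc, chr16:32631711-32631737, plus strand, 3′ UTR: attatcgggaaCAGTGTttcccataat
Slc11a2, chr15:100395153-100395180, minus strand, 3′ UTR: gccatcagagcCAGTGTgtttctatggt

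Among the main transcripts of 21866 protein-coding genes, 0.096% held a fully paired match in the 5′ UTR and 0.494% in the 3′ UTR. With the looser rule, 3.95% held one in the 3′ UTR. Enrichment among the iron genes described here cannot be tested against these shares, because the genes were picked for their role in iron handling. The genes with a hairpin ahead of the coding region did not move together: Fth1 rose, while Ftl1 and Slc40a1 fell. Both genes with the hairpin behind it, Tfrc and Slc11a2, rose. Of 18 other genes with a fully paired 5′ UTR match, 12 were tested: 3 rose, 5 fell and the median log2 change was 0.02. The falls include Ftl1-ps1, a copy of Ftl1 whose reads may be those of Ftl1; without it, 3 of 11 rose and 4 fell, with a median of 0.11. Of 107 others with a 3′ UTR match, 77 were tested, of which 22 rose and 22 fell, the median being 0.03. The counts are per gene, so transcripts with and without a hairpin were not parted.

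Iron uptake came first. Tfrc (ENSMUSG00000022797.16, chr16:32608920-32632794) encodes the transferrin receptor, the main port of entry for transferrin-bound iron. It had 260, 283 and 331 CPM in NETs-treated libraries, against 200, 212 and 210 CPM in control libraries. Every NETs-treated library lay above every control library, and NETs-treated replicate 3 was the highest. The rise was 1.40-fold, a log2 fold change of 0.49 ± 0.09 (SE, adjusted p = 0.00223, edgeR). With a correction for transcript GC content, added after seeing the data, the log2 fold change was 0.30 (adjusted p = 0.000967, edgeR); the main Tfrc transcript has 39.8% GC.

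Slc11a2 (ENSMUSG00000023030.16, chr15:100387898-100425072) encodes DMT1, the transporter that passes ferrous iron from the endosome to the cytosol. It had 95.0, 105 and 115 CPM in NETs-treated libraries, against 62.9, 61.1 and 59.3 CPM in control libraries. The control values lay close together and well below the NETs-treated ones. The rise was 1.72-fold, or 0.78 ± 0.09 on the log2 scale (SE, adjusted p = 0.000113, edgeR). The gene Gm5475 overlaps it on the other strand but held at most 20 reads in any library.

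Slc11a1 (ENSMUSG00000026177.11, chr1:74375195-74386062) encodes the related transporter NRAMP1, which moves divalent metal out of the phagosome. It had 313, 308 and 290 CPM in NETs-treated libraries, against 372, 370 and 349 CPM in control libraries. The groups did not overlap, but the fall was the smallest of those called, with a log2 fold change of -0.26 ± 0.06 (SE, adjusted p = 0.00737, edgeR). The call was lost with the correction for GC content, which gave -0.10 (adjusted p = 0.143, edgeR). A correction for transcript length gave -0.16 and kept the call (adjusted p = 0.0404, edgeR). Per kilobase of exon, Slc11a2 stood at 0.203 ± 0.0275 times the level of Slc11a1 in NETs-treated cells and 0.0980 ± 0.00144 times in control cells (SD, n = 3 each). This pair was not planned before its values were seen, so no test is given.

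Ferritin, the iron store, showed opposite changes of its chains. Fth1 (ENSMUSG00000024661.7, chr19:9980598-9985098) encodes the heavy chain, which oxidises iron for storage. Its level was 30943, 31275 and 25682 CPM in NETs-treated libraries, against 16477, 17252 and 17151 CPM in control libraries. NETs-treated replicate 3 was the lowest of its group and still far above each control library. Fth1 thus rose 1.73-fold, a log2 change of 0.79 ± 0.07 (SE, adjusted p = 4.25e-05, edgeR). Fth1 alone took 3.01%, 3.03% and 2.52% of all counts in the NETs-treated libraries, against 1.69%, 1.77% and 1.76% in the control libraries.

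Ftl1 (ENSMUSG00000050708.16, chr7:45457944-45459884) encodes the light chain, which aids the formation of the iron core. Its level was 6727, 5639 and 4682 CPM in NETs-treated libraries, against 11572, 10536 and 10477 CPM in control libraries. All NETs-treated values were lower than all control values, and they varied more, relative to their mean, than those of any other gene of the set. Ftl1 was thus 1.91-fold lower in NETs-treated cells, a log2 change of -0.93 ± 0.12 (SE, adjusted p = 0.000219, edgeR). Gm10252, a transcript annotated on the opposite strand at the Ftl1 start, had 103 to 342 CPM in NETs-treated and 382 to 572 CPM in control libraries, and was called lower as well (log2 change -1.07, adjusted p = 0.038, edgeR). Whether the counting used the strand is not given, so reads of this pair cannot be parted; with both added, the log2 fold change was -0.94.

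The counts of Fth1 divided by those of Ftl1 within each library need no scaling between libraries. This ratio was 4.60, 5.55 and 5.48 in NETs-treated libraries, against 1.42, 1.64 and 1.64 in control libraries, 3.32 times as high. The pair was chosen after its values were seen, so no test is given. Both chains together made up 3.67%, 3.58% and 2.97% of all counts in NETs-treated libraries, against 2.89%, 2.85% and 2.83% in control libraries. Ferritin has processed pseudogenes that can take reads from its genes. Ftl1-ps1 had 56.0 ± 5.05 CPM in NETs-treated and 104 ± 7.67 CPM in control cells (SD, n = 3 each). It fell with a log2 change of -0.89 and Ftl2-ps with -0.79, and reads of these copies and of Ftl1 cannot be told apart with certainty. Adding the counts of all 5 ferritin pseudogenes to their parent genes left the ratio at 5.14 ± 0.517 in NETs-treated and 1.55 ± 0.122 in control cells.

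**Figure D2:**
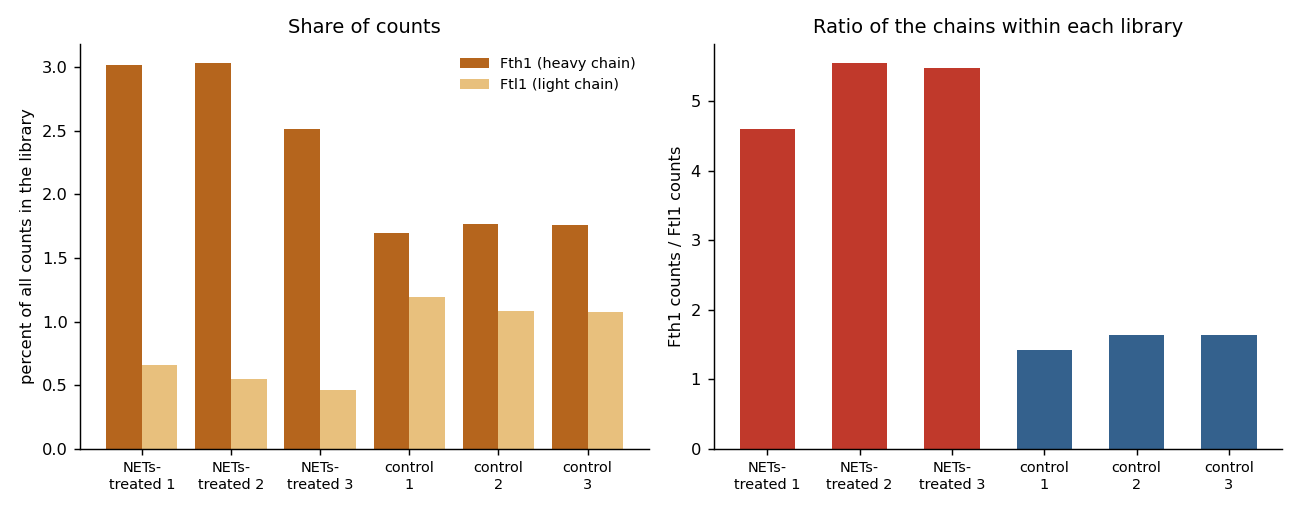
Left, percent of all counts of each library (y axis, from 0) taken by Fth1 and Ftl1; right, counts of Fth1 divided by counts of Ftl1 in each library. In the NETs-treated libraries the ratio is 4.60 to 5.55, against 1.42 to 1.64 in the control libraries.

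Ncoa4 (ENSMUSG00000056234.15, chr14:32159865-32179855) encodes the receptor that delivers ferritin to the lysosome for breakdown. It had 91.2, 99.4 and 105 CPM in NETs-treated libraries, against 149, 157 and 160 CPM in control libraries. The groups were far apart. Ncoa4 was 1.57-fold lower in NETs-treated cells, a log2 change of -0.66 ± 0.08 (SE, adjusted p = 0.000151, edgeR). Herc2, the ubiquitin ligase that targets NCOA4, had 104 CPM in NETs-treated and 92.8 CPM in control cells and was not called (adjusted p = 0.0929, edgeR).

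Slc40a1 (ENSMUSG00000025993.10, chr1:45908068-45926523) encodes ferroportin, the known exporter of iron from cells. Its level was 26.4, 23.8 and 26.9 CPM in NETs-treated libraries, against 87.5, 96.7 and 97.8 CPM in control libraries. No NETs-treated library came near a control library. The fall was 3.66-fold, the largest of the 10 genes, with a log2 change of -1.87 ± 0.09 (SE, adjusted p = 1.03e-06, edgeR). Per kilobase of exon, Tfrc stood at 16.5 ± 1.94 times the level of Slc40a1 in NETs-treated cells and 3.21 ± 0.101 times in control cells (SD, n = 3 each); this pair too was chosen after its values were seen.

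Hmox1 (ENSMUSG00000005413.8, chr8:75093621-75100589) encodes heme oxygenase-1, which frees iron from heme. It had 159, 125 and 116 CPM in NETs-treated libraries, against 338, 323 and 321 CPM in control libraries. NETs-treated replicate 1 was the highest of its group and still below each control library. Hmox1 was 2.46-fold lower in NETs-treated cells, a log2 change of -1.30 ± 0.11 (SE, adjusted p = 3e-05, edgeR).

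Lcn2 (ENSMUSG00000026822.14, chr2:32384633-32388252) encodes lipocalin-2, which captures siderophores and is induced in macrophages by inflammatory signals. Its level was 148, 158 and 133 CPM in NETs-treated libraries, against 31.9, 34.9 and 30.3 CPM in control libraries. Each NETs-treated library was several times above each control library. The rise was 4.52-fold, the largest of the 10 genes, with a log2 change of 2.18 ± 0.09 (SE, adjusted p = 8.11e-07, edgeR). Lcn2 is also a granule gene of neutrophils, the cells that NETs come from. The 15 neutrophil markers summed to 19.1 to 20.7 CPM in NETs-treated and 22.7 to 29.3 CPM in control libraries. Among them Mpo, Ctsg, Ngp, Ltf, S100a9, Ly6g and Retnlg were at 0 in all 6 libraries, while S100a8 rose with 11.7 ± 2.67 CPM in NETs-treated and 2.68 ± 0.591 CPM in control cells (SD, n = 3 each). Of the 6 markers tested, 1 rose and 4 fell, and their part in the Lcn2 result was not tested. The lipocalin receptor gene Slc22a17 was too low to be tested, with 12 reads in control replicate 3 and 0 in every other library.

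Ireb2 (ENSMUSG00000032293.8, chr9:54863789-54912530) encodes IRP2, an iron-regulatory protein that binds the hairpins shown above. It had 133, 140 and 167 CPM in NETs-treated libraries, against 114, 134 and 135 CPM in control libraries. The groups overlapped. The difference was 0.20 ± 0.10 on the log2 scale (SE, adjusted p = 0.145, edgeR). It was called without NETs-treated replicate 1, at 0.29 (adjusted p = 0.0451, edgeR), and had the opposite sign with the correction for GC content, at -0.02.

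**Figure D3:**
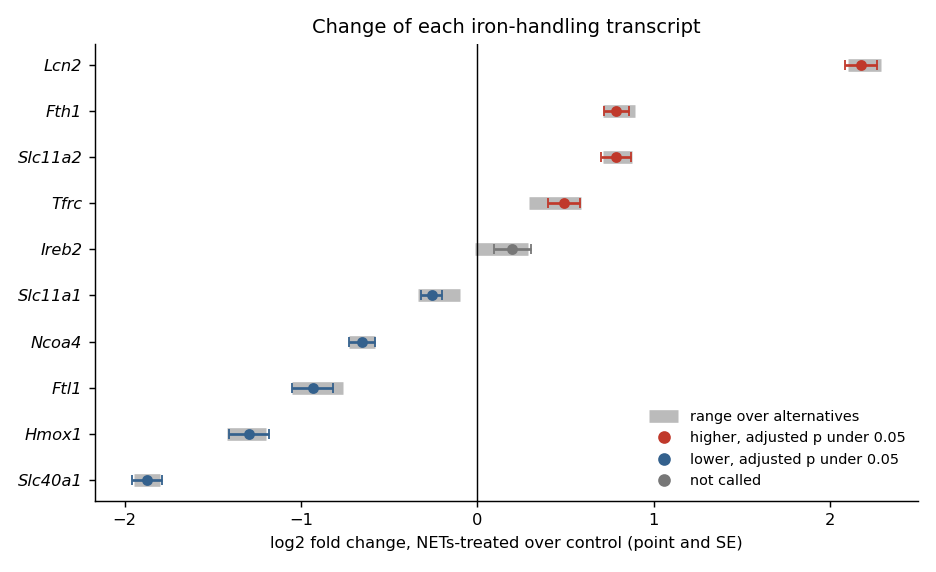
Log2 fold change of NETs-treated over control for each gene (points, with SE) and the range over the alternative analyses (grey bars). Lcn2 lies highest at 2.18 and Slc40a1 lowest at -1.87, and the grey bar of Ireb2 alone crosses 0.

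Levels of different genes can be compared only per length, here as CPM per kilobase of all annotated exons. In NETs-treated cells Fth1 stood highest at 8446 ± 905, followed by Ftl1 at 4241 ± 763 (SD, n = 3). Slc11a1 at 82.0 ± 3.18 and Hmox1 at 76.1 ± 12.7 came next and overlapped. So did Lcn2 at 55.7 ± 4.82 and Tfrc at 47.1 ± 5.93, and then Slc11a2 at 16.6 ± 1.61 and Ireb2 at 15.5 ± 1.86. Ncoa4 at 10.5 ± 0.755 and Slc40a1 at 2.85 ± 0.181 were lowest. The libraries thus set the ferritin genes apart from the rest.

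In control cells, on the same scale, Ftl1 stood at 8106 ± 460 and Fth1 at 4889 ± 121 (SD, n = 3). Hmox1 at 187 ± 5.44, Slc11a1 at 98.1 ± 3.47, Tfrc at 33.5 ± 1.05 and Ncoa4 at 16.6 ± 0.649 followed without overlap. Ireb2 at 13.5 ± 1.24 and Lcn2 at 12.3 ± 0.875 overlapped, as did Slc40a1 at 10.4 ± 0.631 and Slc11a2 at 9.62 ± 0.287. In control cells the order of the ferritin chains depends on the length taken, whereas in NETs-treated cells Fth1 was above Ftl1 by either length. Per kilobase of the main coding transcript, Fth1 was at 19612 in NETs-treated and 11352 in control cells, and Ftl1 at 5871 in NETs-treated and 11221 in control cells. By all annotated exons Fth1 ranked 3 among 54349 genes in NETs-treated and 5 in control cells, and Ftl1 ranked 9 and 1. By the main coding transcript Fth1 ranked 1 in NETs-treated and in control cells alike. In control cells its values overlapped those of Ftl1, with Fth1 over Ftl1 at 0.923, 1.06 and 1.06 in the 3 libraries.

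The other genes of iron handling were taken from lists by role, with 107 distinct genes tested, of which 40 rose and 37 fell. That was 72.0% called, against 52.7% of all genes tested, and the median log2 change was 0.01. The ferritin pseudogenes are not among them. Neither figure sets these genes apart, since the lists were chosen with results of these data known.

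Of 6 tested genes of iron uptake, 1 rose, 3 fell and the median log2 change was -1.32. Slc39a14, a transporter of iron that is not bound to transferrin, had 77.7 ± 6.71 CPM in NETs-treated and 61.5 ± 2.21 CPM in control cells (SD, n = 3 each) and rose; 2 genes rose with the correction for GC content or for transcript length, and with a filter at 1 CPM in 3 samples. Hfe, whose product associates with the transferrin receptors, fell to 1.73 ± 0.163 CPM in NETs-treated cells, against 9.89 ± 0.445 CPM in control cells. Lrp1, a receptor for hemopexin-bound heme among many ligands, had a log2 fold change of -1.36 ± 0.10. Steap3, the reductase that works beside DMT1 in the endosome, had -1.29 ± 0.12. Trf, which encodes transferrin, had 142 CPM in NETs-treated and 129 CPM in control cells and was not called, and Cd163, Steap1, Steap2 and Steap4 were at 0 in all libraries.

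Among 4 tested storage and chaperone genes only Pcbp4 was called. With the correction for GC content, or with a filter at 1 CPM in 3 samples, 2 rose, and without NETs-treated replicate 1, as in the authors' deposited table, 1 fell. Pcbp4 rose by 0.60 ± 0.12 on the log2 scale, while the iron chaperone genes Pcbp1 and Pcbp2 had -0.09 and 0.01. Of 4 tested genes of export and its regulation, 1 rose and 1 fell; without NETs-treated replicate 3, or scaled by library size only, 2 fell. Cp, which encodes the ferroxidase ceruloplasmin that works with ferroportin, fell to 0.479 ± 0.189 CPM in NETs-treated cells, against 7.08 ± 0.474 CPM in control cells (SD, n = 3 each). The log2 change of Cp was -3.87 ± 0.31 (SE, adjusted p = 1.91e-05, edgeR). Neo1, a coreceptor of hepcidin regulation in the liver, rose by 0.44 on the log2 scale, a call lost without NETs-treated replicate 2 or any single control replicate (adjusted p 0.0521 to 0.0838, edgeR). Hamp, the hepcidin gene, was at 0 in all libraries.

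Of 7 tested genes that control the iron-regulatory proteins or act beside them, 3 rose and 2 fell. Fbxl5, the iron-sensing subunit of the ligase that degrades IRP2, had 130 ± 13.6 CPM in NETs-treated and 70.1 ± 2.91 CPM in control cells (SD, n = 3 each). Its partner Skp1a and the hypoxia factor gene Hif1a rose too, with log2 fold changes of 0.60 and 0.62, whereas the scaffold gene Cul1 fell with -0.50. Aco1, which encodes IRP1, had 36.1 CPM in NETs-treated and 35.6 CPM in control cells and was not called. Among 5 other tested transcripts known for an IRE, 0 rose and 3 fell by edgeR (also 0 higher by DESeq2, limma-voom and an unadjusted p below 0.05). The falls include Epas1 with -1.97 ± 0.07 and Cdc42bpa with -1.04 ± 0.17. The genes not called were barely detected, so a rise in them could easily be missed. Alas2 had 0.364 CPM in NETs-treated and 0.264 CPM in control cells, and Pfn2 had 0.427 and 0.354 CPM.

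Genes of heme breakdown and transport had 0 of 9 tested members higher and 4 lower by edgeR; DESeq2, limma-voom and an unadjusted p below 0.05 also gave 0 higher. With the correction for GC content 2 were higher. Hp, which encodes the hemoglobin-binding haptoglobin, fell to 2.46 ± 0.514 CPM in NETs-treated cells, against 21.3 ± 0.702 CPM in control cells (SD, n = 3 each). Blvra, the biliverdin reductase that acts after heme oxygenase, had a log2 change of -1.24 ± 0.07, while the heme and folate carrier gene Slc46a1 had -1.03 ± 0.19. The heme exporter gene Flvcr1 and the phagolysosomal heme transporter gene Slc48a1 were not called, with 0.07 and 0.04. Heme synthesis had 3 of 14 tested genes higher and 5 lower. The porphyrin transporter gene Abcb6 rose by 1.37 ± 0.16, Urod by 0.70 and the rate-limiting synthase gene Alas1 by 0.30, while Cpox and Tmem14c had -0.45 and -0.44.

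Mitochondrial iron import and iron-sulfur cluster assembly had 13 of 28 tested genes higher and 10 lower, with a median log2 fold change of 0.04. Slc25a37, the mitochondrial iron importer mitoferrin-1, had 292 ± 8.99 CPM in NETs-treated and 110 ± 3.17 CPM in control cells (SD, n = 3 each), a log2 fold change of 1.40 ± 0.06. The scaffold gene Iscu rose by 1.32 ± 0.07 and the carrier gene Isca1 by 1.10 ± 0.08. In the other direction, the transporter gene Abcb8 had -1.73 ± 0.13, the late-acting cluster gene Nfu1 had -1.37 ± 0.21 and the ferredoxin reductase gene Fdxr had -1.05 ± 0.12.

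Of the lipocalin partners only Mmp9, a protease that lipocalin-2 binds, was tested; it fell with a log2 fold change of -1.10 ± 0.10. Of 7 genes for proteins that set the decay of Tfrc or inflammatory transcripts, 3 rose and 3 fell, and the falls include a stabilising protein. Zc3h12a, the ribonuclease Regnase-1, which cleaves Tfrc mRNA among others, had 57.9 ± 8.98 CPM in NETs-treated and 9.22 ± 1.08 CPM in control cells (SD, n = 3 each). Rc3h1 and Rc3h2, which encode the Roquin proteins, rose by 1.10 and 0.75. The decay factor genes Zfp36l1 and Zfp36l2 fell with -1.32 and -0.65, and Arid5a, an RNA-binding protein that stabilises transcripts, fell with -0.64.

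Of 13 tested transcription factor genes known to act on Hmox1, the ferritins or Lcn2, 10 rose and 2 fell. Among all genes tested, 25.5% rose and 27.2% fell, but this list too was chosen with results known. Nfkbiz, a cofactor needed for Lcn2 induction, had 236 ± 8.72 CPM in NETs-treated and 52.8 ± 2.39 CPM in control cells (SD, n = 3 each), a log2 fold change of 2.16 ± 0.07. Cebpb, which encodes an inflammatory transcription factor, rose by 1.25 ± 0.13, and Mafk, a small Maf partner of NRF2 and BACH1, rose by 1.15 ± 0.11. Bach1 rose by 0.79 ± 0.10 and Nfe2l2, the NRF2 gene, by 0.49 ± 0.06. Cebpd had -0.89 ± 0.15, and Keap1, the inhibitor of NRF2, had -0.76 ± 0.18. Among 12 other tested targets of NRF2 and BACH1, 6 rose and 4 fell. The peroxiredoxin gene Prdx1 rose by 1.02 ± 0.07 and the sulfiredoxin gene Srxn1 by 0.68 ± 0.08, while Osgin1 had -1.95 ± 0.22, the transketolase gene Tkt -0.60 and the glutathione synthesis gene Gclc -0.35. The cystine transporter gene Slc7a11 had 649 CPM in NETs-treated and 229 CPM in control cells and rose as well. These targets thus went in both directions.

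**Figure D4:**
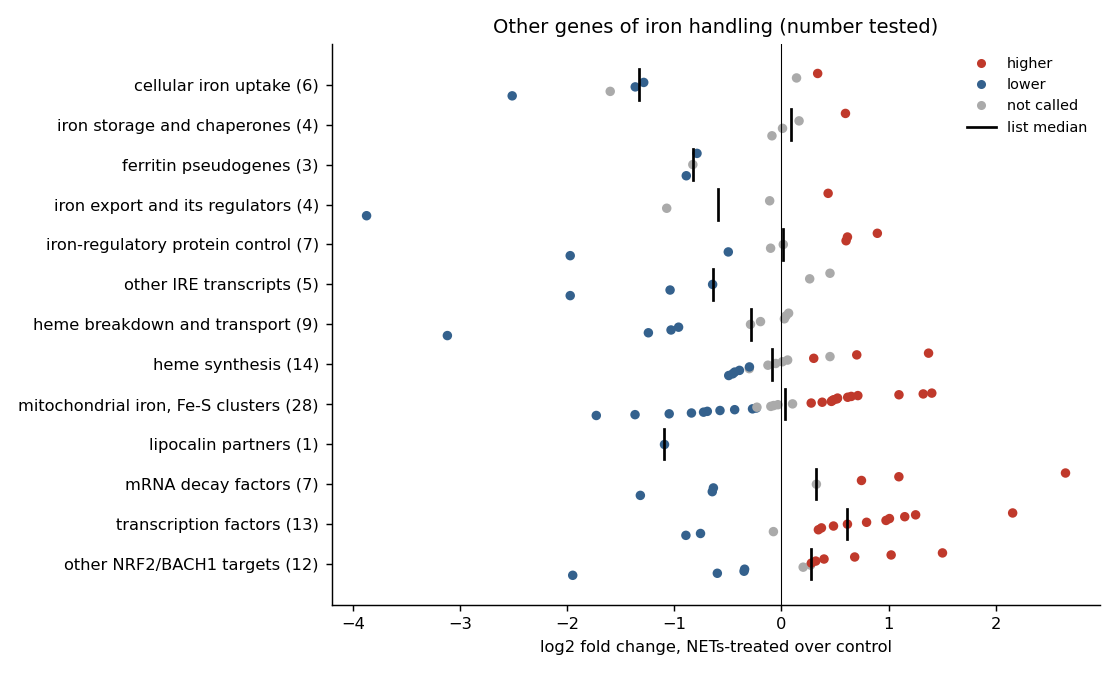
Log2 fold change of NETs-treated over control (x axis) for every tested gene of each list by role, with called genes in red (higher) and blue (lower) and the list median as a black bar. Most lists hold genes on both sides of 0, with Cp lowest at -3.87 and Zc3h12a highest at 2.65.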

How the data were processed

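Raw read counts of 55401 genes in the 6 samples came from 1 deposited table, per the file headers. Normalised counts in the same deposited table are a signal equal to the count divided by 1 size factor per sample. It also holds the authors' own p-values, raw and adjusted, and their log2 fold changes. HISAT2, DESeq2 and the builds mm10 and rn6 are named, without versions or roles, per the submitters' processing notes. Libraries were strand-specific, per the labels' protocols. The counting program is not given in the sources used, nor is its strand setting.

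Tests on counts used edgeR 4.0.16 (R 4.3.3) and its quasi-likelihood fit, two-sided, over all 6 samples with TMM scaling and the filter of edgeR (minimum count 10, minimum total 15). Benjamini-Hochberg adjustment ran over all 15272 genes tested. The SE came from the fold change and its F statistic. The test was also run on simulated counts, whose spread followed the trend over all genes. That run does not cover the spread of single genes. CPM values are counts divided by TMM-scaled library sizes. Coordinates, lengths and transcripts came from GENCODE M21 (GRCm38); the IDs and versions of all 10 genes matched it. Library pairs of 1 group differed by more than sampling noise (chi-square per gene 9.77 to 77.2), and each counted as 1 sample. This spread cannot show whether the libraries came from separate cultures. Alternatives were the DESeq2 1.42.0 size factors and Wald test, library size only, upper-quartile scaling, limma-voom 3.58.1, other filters, a replicate block, leaving out each sample, and the authors' table. Corrections for GC content and transcript length (lowess, span 0.3), summed ferritin pseudogenes, summed Gm10252 and the main transcript length were chosen after seeing the data.

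The 10 genes and all lists were chosen with earlier results of these data known. All 10 genes are named. From each list by role, the text names called genes whose mean reached 1 CPM, up to the 3 largest rises and 3 largest falls, or the 2 most abundant where none passed. From marker lists the 3 most abundant were taken; other genes (among them those not called or at 0) were named after their values were seen. Some genes that this rule takes are not reported here. Ndor1 has several identifiers and was left out of its list.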

Additional observations from a re-analysis of the deposited data

How the results depend on the processing

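Of the 173 values that the 10 genes took under the alternatives, 169 kept their direction and their side of the threshold. The exceptions were Slc11a1 and Ireb2. With the correction for GC content Slc11a1 was not called (-0.10, adjusted p = 0.143, edgeR), and Ireb2 had a log2 fold change of -0.0153 (-0.02) instead of 0.20; the cause was not tested. Ireb2 was called without NETs-treated replicate 1. The count of called genes among the 10 was 8 with that correction and 9 or 10 otherwise. Leaving out 1 library gave 9 to 10 called genes. The replicate number as a block raised the count to 10, since Ireb2 was then called (adjusted p = 0.0455, edgeR). It raised the calls over all genes to 8105, against 8051 without it. Libraries with the same number had correlations of their deviations of 0.21, 0.03 and 0.08, and 1 of the 3 NETs-treated libraries correlated best with its own number, so the numbers were not taken as pairs. Per kilobase of the main transcript in place of all exons, Fth1 over Ftl1 was 3.38 in place of 2.01 in NETs-treated cells and 1.01 in place of 0.605 in control cells. Of the named genes of the lists, 829 values kept their call and 4, all of Neo1, lost it. PCR reads are not independent molecules, and n = 3 per group limits the precision.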
